A study of Mus musculus with 22 samples.

Results

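TCPOBOP given to female mice raised 266 genes and lowered 183 in liver nuclei within 3 h. These genes were counted among the 9958 of 24197 RefSeq genes whose group mean reached 1 FPKM (fragments scaled to the length of a gene and the depth of its library) in the vehicle pools, the TCPOBOP pools or both. That rule uses the level of a gene and not its change, and a gene below 1 FPKM in vehicle enters only through a higher treated mean, as 32 of the 266 raised genes did. The 7-week-old CD-1 (ICR) females received TCPOBOP at 3 mg/kg or the vehicle alone, 1% DMSO in corn oil, and poly(A)-selected nuclear RNA was sequenced with strand. Each group had 8 mice, combined into 2 pools of 4 livers. Beside it stand males given the same dose for 3 h, with the same pooling, and females studied 27 h after the same dose, with 2 pools of 3 livers per group. Each comparison has vehicle pools of its own.

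All levels, ratios and adjusted p-values come from the authors' deposited table, which holds 1 mean per group and no value per pool, so no SD can be given. Raised and lowered mean an authors' adjusted p below 0.05 with a ratio above or below 1, and that p reflects the spread between 2 pools a group and not between single mice. The response of a gene is log2 of the treated over the vehicle mean, with 0.1 FPKM added to each, less the median of -0.08 over the 9958 genes. Most responses were small, at -0.44 and 0.54 for the 5th and 95th percentiles, and 7793 genes had an adjusted p of 1. The depth, estimated from steps in the low FPKM values, was about 31400000 to 32000000 fragments per vehicle pool and 25400000 to 33700000 per TCPOBOP pool. Xist, the RNA that silences an X chromosome in females, stood at 178 FPKM in the vehicle and 166 FPKM in the TCPOBOP pools, and at 0.0840 and 0.118 FPKM in the male groups of the same time, as the labels say. The 14 hepatocyte markers summed to 5080 FPKM in vehicle and 4921 FPKM after TCPOBOP.

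TCPOBOP is an agonist ligand of mouse CAR (Nr1i3), a nuclear receptor that hepatocytes keep in the cytoplasm until it is activated. In the nucleus CAR pairs with RXR alpha (Rxra) and binds DNA at repeats of an AGGTCA-like motif, many of them in distal enhancers. Its known targets in liver make enzymes and transporters that oxidise, conjugate and export drugs, bile acids and steroids, and strong agonists also drive liver growth in mice. The genes for the receptor pair gave no call: Nr1i3 was at 193 FPKM in vehicle and 166 FPKM after TCPOBOP, and Rxra at 20.4 and 17.2 FPKM, both with an adjusted p of 1 in the authors' deposited table. Nr1i2, which encodes the related receptor PXR, rose from 27.2 to 43.3 FPKM, a 1.67-fold change (adjusted p = 0.00971 in the authors' deposited table).

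The 5 raised genes with the smallest adjusted p are shown by the 250 bases before their annotated start, to give the promoter context of the response. Sequences and positions are from RefSeq (GRCm38.p6), all on the plus strand, whereas the deposited gene positions are in mm9. The windows are chr7:25897408-25897657 for Cyp2b10, chr8:104733753-104734002 for Ces2a, chr19:39006769-39007018 for Cyp2c55, chr19:39286835-39287084 for Cyp2c29 and chr10:80929841-80930090 for Gadd45b. Capitals mark exact matches, on either strand, to the nuclear receptor motif AGGTCA, to its variant AGTTCA or to the promoter box TATAAA, and no 2 matches overlap in these windows.
Cyp2b10: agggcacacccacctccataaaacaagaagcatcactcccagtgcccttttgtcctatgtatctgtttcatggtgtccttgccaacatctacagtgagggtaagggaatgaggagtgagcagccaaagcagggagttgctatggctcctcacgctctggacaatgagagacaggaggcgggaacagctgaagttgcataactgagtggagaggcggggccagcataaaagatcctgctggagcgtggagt
Ces2a: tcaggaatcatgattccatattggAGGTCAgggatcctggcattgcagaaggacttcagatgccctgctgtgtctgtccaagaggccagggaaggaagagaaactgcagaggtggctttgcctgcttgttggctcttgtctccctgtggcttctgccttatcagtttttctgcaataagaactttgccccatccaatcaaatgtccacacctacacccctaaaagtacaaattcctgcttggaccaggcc
Cyp2c55: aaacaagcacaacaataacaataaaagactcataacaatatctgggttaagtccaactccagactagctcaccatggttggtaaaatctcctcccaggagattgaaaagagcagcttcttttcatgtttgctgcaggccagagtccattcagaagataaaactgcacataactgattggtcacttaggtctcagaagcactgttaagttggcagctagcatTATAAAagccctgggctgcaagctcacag
Cyp2c29: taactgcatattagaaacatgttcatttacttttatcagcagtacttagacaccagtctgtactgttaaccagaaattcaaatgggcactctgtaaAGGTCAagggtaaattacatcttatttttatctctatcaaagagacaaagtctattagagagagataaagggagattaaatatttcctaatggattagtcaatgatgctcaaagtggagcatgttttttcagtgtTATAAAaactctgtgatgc
Gadd45b: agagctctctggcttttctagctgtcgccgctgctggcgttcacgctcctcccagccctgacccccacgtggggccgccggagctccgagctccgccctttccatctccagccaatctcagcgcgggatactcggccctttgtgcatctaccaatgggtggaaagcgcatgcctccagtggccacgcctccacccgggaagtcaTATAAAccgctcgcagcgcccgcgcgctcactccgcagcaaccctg
The Ces2a window holds AGGTCA beginning 226 bases before the start. In Cyp2c29 an AGGTCA begins 154 bases before the start and TATAAA 19 bases before it. Cyp2c55 holds TATAAA 29 bases and Gadd45b 46 bases before the start, and the Cyp2b10 window has none of the 3 motifs. These short motifs are common: AGGTCA was found in 13.8% of all 27025 promoters in the RefSeq table, in 11.1% of the 7492 measured genes with a window, in 14.8% of the 203 raised and in 12.1% of the 132 lowered genes with one. TATAAA was found in 12.98% of all promoters, 6.81% of the measured genes, 13.3% of the raised and 12.1% of the lowered. A match is a string of letters in a window and not a binding site.

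Raised genes made up 2.67% of the measured genes and lowered genes 1.84%. The rises were also the larger changes, with a median authors' fold of 1.93 among raised genes and 1.71 among lowered genes. A centred response of 4-fold or more was reached by 25 raised genes but by 2 lowered genes. Calls were more frequent at high levels: 8.08% of genes with a mean of 30 FPKM or more were raised and 6.50% lowered, against 1.34% and 0.969% of those from 1 to 3 FPKM. Smaller changes can be called in genes with more reads. The responses also varied more between genes at high levels. Their SD across genes was 0.62 at 30 FPKM or more and 0.33 from 1 to 3 FPKM. The part of depth in these shares was not tested. In a bulk nuclear pool, fewer cells of a type and less RNA per cell cannot be told apart.

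**Figure D1:**
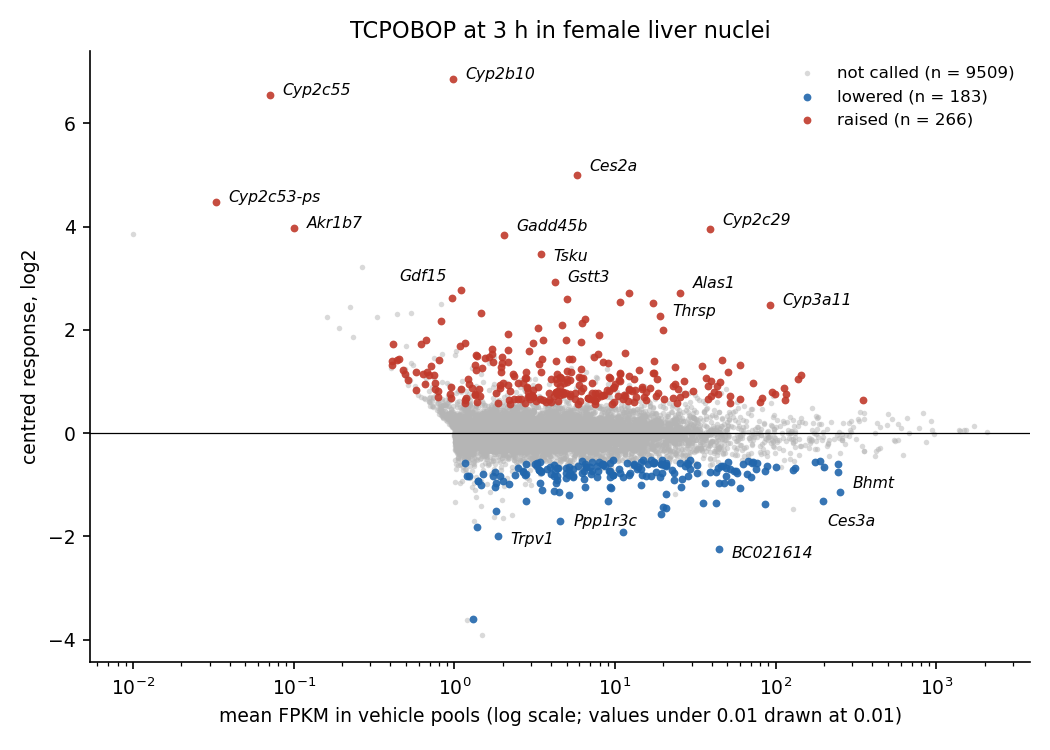
Each point is 1 of the 9958 genes, with its mean FPKM in the vehicle pools on a log axis and its centred log2 response to TCPOBOP at 3 h on the vertical axis; red points are the 266 raised and blue points the 183 lowered genes. Rises reach a response of 6.87 (Cyp2b10) and most falls stay above -2.

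The largest rises belonged to P450 enzymes of the Cyp2b and Cyp2c families, which oxidise drugs and steroids. Cyp2b10 (NM_009999, mm9 chr7:26682677-26711643), the classical CAR target of mouse liver, went from 0.974 FPKM in vehicle to 119 FPKM. In the authors' deposited table that is a 127-fold rise (adjusted p = 1.04e-203). Cyp2c55 (NM_028089, chr19:39081509-39117177) went from 0.0713 to 15.1 FPKM, or 214-fold (adjusted p = 2.96e-134 in the authors' deposited table). Cyp2c29 (NM_007815, chr19:39361575-39405203) was already at 38.8 FPKM in vehicle and reached 571 FPKM, the largest gain in FPKM of any called gene, at 532. Of the 17 measured members of the list, 7 rose and 1 fell, with a median response of 0.29. Of the 7, Cyp2b10, Cyp2c55 and Cyp2c53-ps passed the floor only through the treated mean. With no floor, 7 of all 21 listed genes rose and 1 fell, against 1.26% and 0.839% of all genes. The other raised members were Cyp2c54 (12.2 to 76.2 FPKM), Cyp2c50 (10.8 to 59.9 FPKM), Cyp2c37 (6.46 to 28.7 FPKM) and the pseudogene Cyp2c53-ps (0.0329 to 2.71 FPKM). Cyp2c38, which lies beside them, fell from 7.70 to 4.01 FPKM (adjusted p = 0.000913 in the authors' deposited table), though its response was 0.026 against the female vehicle pools of 27 h. The female-predominant Cyp2b9 (89.4 and 77.7 FPKM) and Cyp2b13 (30.6 and 36.2 FPKM), which neighbour Cyp2b10, were not called. These families are made of near-identical copies, and how the authors' counting split reads between copies is not given in the sources used here.

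Cyp3a enzymes, which have broad drug substrates and are also targets of PXR, followed with 5 of 7 members raised and a median response of 0.92. Cyp3a11 went from 91.9 to 489 FPKM (5.56-fold, adjusted p = 3.98e-40 in the authors' deposited table). Cyp3a44, a female-predominant enzyme, went from 50.1 to 108 FPKM, Cyp3a59 from 34.6 to 81.3 FPKM, Cyp3a13 from 37.7 to 67.5 FPKM and Cyp3a25 from 349 to 514 FPKM. Cyp3a25 and Cyp3a59 were lower than the 27 h female vehicle pools, at responses of -0.56 and -0.48. Among 23 other P450 genes 4 rose and 3 fell. The rises include Cyp4f15, of a family that hydroxylates fatty acids and leukotrienes (59.8 to 142 FPKM, with a response of 1.32, but 0.078 against the 27 h female vehicle), and Cyp1a2, a classical target of the Ah receptor (7.21 to 13.4 FPKM, below the 17.2 FPKM of the 27 h female vehicle). Ahr, the gene of that receptor, also rose, from 6.27 to 12.6 FPKM (adjusted p = 1.71e-08 in the authors' deposited table). The falls include Cyp2u1, from 1.82 to 0.536 FPKM (3.19-fold lower, adjusted p = 4.92e-08 in the authors' deposited table). Its response of -1.52 shrank to -0.39 against the 27 h female vehicle pools.

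Of 16 genes for P450 partners and heme, 2 rose and none fell. Alas1, the rate-limiting enzyme of heme synthesis, rose from 25.4 to 159 FPKM, and Por, the reductase that feeds electrons to all microsomal P450 enzymes, from 17.3 to 94.3 FPKM. The authors' deposited table gives 6.55-fold for Alas1 (adjusted p = 9.86e-54) and 5.68-fold for Por (adjusted p = 1.37e-46). The other 14, among them later steps of heme synthesis, passed no test, and the median response of the list was -0.18.

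Among the gene lists, conjugating enzymes held the largest number of raised genes, though not the largest share. Of 22 measured glucuronosyl- and sulfotransferases and makers of their donors, 11 rose and 1 fell, with a median response of 0.71. In males at 3 h, where 1.33% of measured genes were raised and 0.505% lowered, 5 of 19 were raised and none lowered. Sult2a1, a sulfotransferase of steroids and bile acids, rose from 7.90 to 28.3 FPKM (3.74-fold, adjusted p = 1.08e-18 in the authors' deposited table). Sult2a2 went from 5.31 to 11.6 FPKM and Sult2a5 from 2.17 to 5.48 FPKM. These copies are products of female liver: in both male groups Sult2a1 was at or below 0.0168 FPKM, and Sult2a2, Sult2a4 and Sult2a5 were listed at 0. Papss2, which makes the sulfate donor, rose from 17.4 to 43.5 FPKM, but the female vehicle pools of 27 h stood higher still, at 76.0 FPKM. Sult1d1 (5.14 to 13.3 FPKM), Ugt2b37 (1.71 to 4.87 FPKM) and Ugt1a1, the glucuronosyltransferase of bilirubin (4.80 to 9.05 FPKM), rose as well. Ugt3a1 was the fall, from 3.46 to 1.91 FPKM.

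Among 32 esterases, epoxide hydrolases and reductases 9 rose and 1 fell. Ces2a, a carboxylesterase (NM_133960, mm9 chr8:107257903-107265534), rose from 5.75 to 178 FPKM, or 32.2-fold (adjusted p = 1.01e-143 in the authors' deposited table). The aldo-keto reductase Akr1b7 rose from 0.101 to 2.89 FPKM (29.1-fold, adjusted p = 1.8e-28 in the authors' deposited table). Another carboxylesterase, Ces3a, moved the other way, from 197 to 75.4 FPKM (2.50-fold lower, adjusted p = 9.55e-13 in the authors' deposited table). Of 16 glutathione transferases 3 rose, namely Gstt3 (4.21 to 30.9 FPKM), Gstm3 (1.46 to 7.26 FPKM) and Gstt1 (6.15 to 19.9 FPKM), and Gstm7 fell from 5.51 to 2.85 FPKM. The export pumps Abcc3 (11.6 to 32.3 FPKM) and Abcc2 (20.2 to 30.4 FPKM) rose. Set against the 27 h female vehicle pools, the response shrank from 1.55 to 0.11 for Abcc3 and from 1.754 to 0.32 for Gstt1. That of Abcc2 grew from 0.67 to 1.38. In contrast Abcb4, which moves phospholipid into bile (19.1 to 10.004 FPKM), and the sterol exporter subunit Abcg8 (9.24 to 5.20 FPKM) fell.

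**Figure D2:**
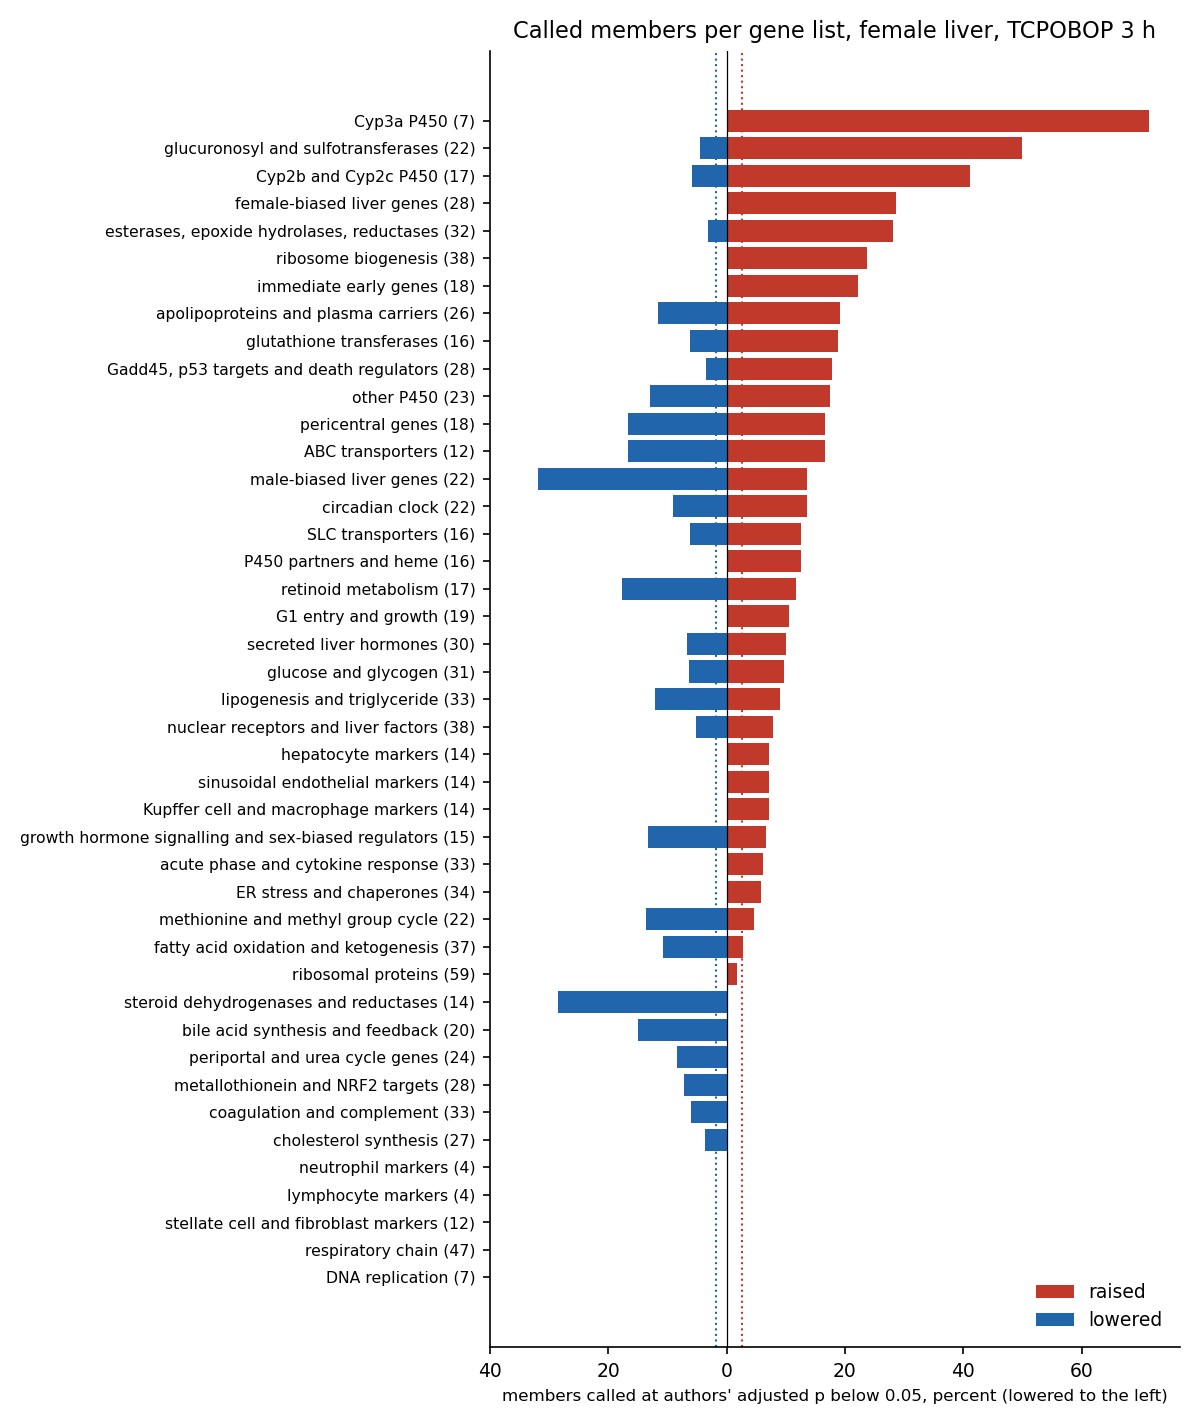
Bars give the percent of measured members raised (red, to the right) or lowered (blue, to the left) in each gene list with 4 or more members other than mitosis, whose 5 members all passed the floor through the treated mean, with the number of members in parentheses; dotted lines mark 2.67% raised and 1.84% lowered among all measured genes. The Cyp3a, conjugation and Cyp2b and Cyp2c lists reach furthest to the right, and male-biased genes and steroid dehydrogenases furthest to the left.

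Several growth and stress regulators rose beside the enzymes. Gadd45b (NM_008655, mm9 chr10:80392836-80394949), a stress-induced regulator of kinase signalling and survival known to bind CAR, rose from 2.04 to 28.9 FPKM, or 14.8-fold (adjusted p = 3.82e-84 in the authors' deposited table). Of the 28 members of the Gadd45, p53 target and death regulator list 5 rose and 1 fell. Gadd45a went from 9.06 to 22.004 FPKM, Gdf15, a stress hormone, from 1.11 to 7.73 FPKM, and Ddit4, an inhibitor of mTORC1 signalling, from 1.74 to 4.41 FPKM. Cdkn1a, the cell cycle inhibitor p21, rose from 4.30 to 8.54 FPKM (adjusted p = 0.0341 in the authors' deposited table), and the pro-apoptotic Bbc3 fell from 1.74 to 0.882 FPKM. Other p53 targets gave no call: Mdm2 stood at 14.6 and 13.5 FPKM and Bax at 11.8 and 11.7 FPKM. Of 19 genes of G1 entry, Ccnd1, the cyclin that commits cells to division, rose from 2.90 to 8.48 FPKM and Myc from 1.91 to 3.41 FPKM (adjusted p = 1.14e-10 and 0.000324 in the authors' deposited table). The other 17 passed no test. Among 18 immediate early genes 4 rose, namely Fosl2 (2.15 to 6.41 FPKM), Jun (3.90 to 6.39 FPKM), Sgk1 and Dusp1, while Fos was at 1.49 and 1.28 FPKM without a call.

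A group that the 1 FPKM floor almost hides is the machinery of mitosis. Only 5 of 32 listed G2 and M phase genes reached the floor, and all 5 did so through the treated mean, so the counts below use no floor. With no floor, 11 of the 32 were called raised and none lowered, against 1.26% and 0.839% of all 24197 genes at any level. All 32 ratios were above 1 in the authors' deposited table, with a median of 1.07 on the log2 scale. The list ran from 0.0552 to 1.10 FPKM in its mean over both groups. Of the 5136 genes in the table with a mean of 0.05 to 1 FPKM, 52.8% had a ratio above 1 and 0.954% were called raised. Mki67, a marker of cycling cells, went from 0.450 to 1.31 FPKM. The vehicle pools of the other 3 TCPOBOP experiments had it between 0.465 and 0.662 FPKM, so the treated females stood above all 4 vehicle groups. Cenpe, the kinetochore motor, went from 0.0869 to 0.347 FPKM, Ccnb1, the mitotic cyclin, from 0.163 to 0.584 FPKM, and Top2a, which untangles chromosomes, from 0.344 to 0.783 FPKM. The authors' deposited table gives adjusted p-values of 1.3e-05, 0.000558, 0.000231 and 9.2e-05 for these 4 genes. In males at 3 h, where 0.612% of all genes were raised and 0.256% lowered at any level, no gene of the list was called and 8 of 32 ratios were above 1. In females at 27 h, 31 of the 32 ratios were above 1, with a median of 0.84 on the log2 scale. The list summed to 8.76 FPKM in female vehicle and 16.9 FPKM after TCPOBOP, and to 11.8 and 10.4 FPKM in the male groups. Of 28 replication genes none was called at any level in females at 3 h, and 19 ratios were above 1. In females at 27 h, 9 of the 22 measured replication genes were raised and 2 lowered. The shares over all measured genes at 27 h were 6.98% and 6.01%.

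**Figure D3:**
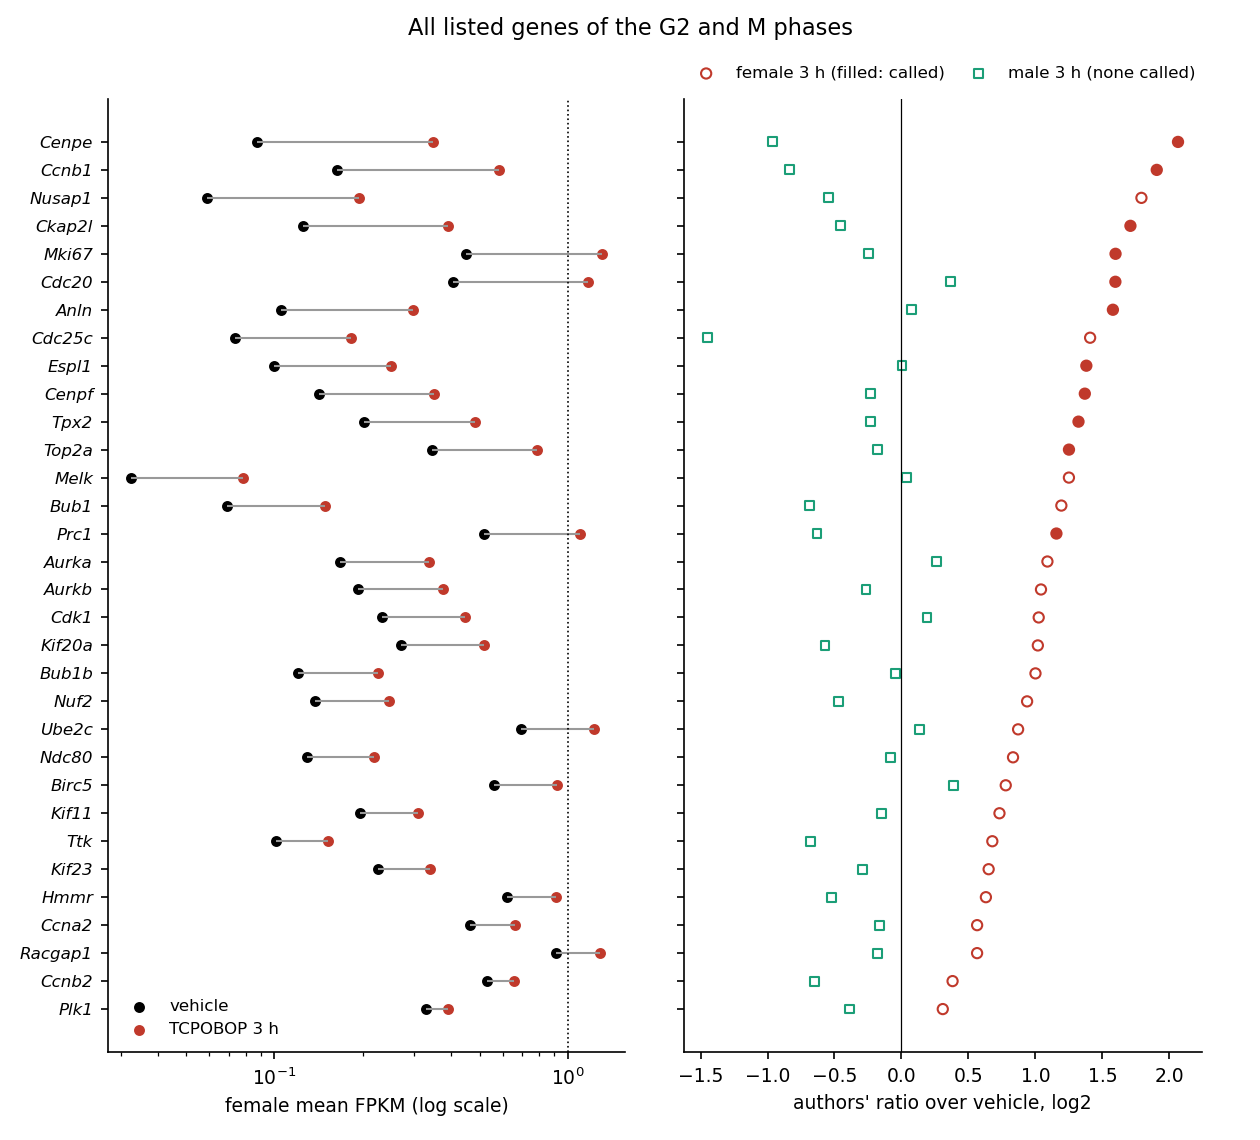
Left, female group means in FPKM on a log axis for all 32 listed G2 and M phase genes in vehicle (black) and after TCPOBOP for 3 h (red), with a dotted line at the floor of 1 FPKM. Right, log2 of the authors' ratio in females (circles, filled where called) and males (squares, none called); all 32 female points lie right of 0 and 8 of the male points do.

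Some genes of ribosome production rose in the same pools. Of 38 measured nucleolar genes that build ribosomes 9 rose and none fell, with a median response of 0.39, and 35 ratios were above 1. Wdr43, a processing factor of the small subunit, went from 4.54 to 8.16 FPKM (1.88-fold, adjusted p = 0.00434 in the authors' deposited table). Nop56, a core protein of the particles that methylate ribosomal RNA, went from 13.3 to 22.6 FPKM, Nolc1 from 4.39 to 7.44 FPKM and Rrn3, the initiation factor of RNA polymerase I, from 3.85 to 5.75 FPKM. Ppan, Gar1, Gnl3, Ddx21 and Rrp1b were the others. Of 59 ribosomal proteins only Rpl10a was called (51.9 to 80.9 FPKM), yet all 59 ratios were above 1 and the median response was 0.33. Over all measured genes 4674 of 9958 ratios were above 1. In males at 3 h, where 1.33% of measured genes were raised and 0.505% lowered, no gene of either list was called. The male medians were -0.02 for both. In females at 27 h, 51 of the 59 ribosomal protein and 29 of the 38 biogenesis ratios were above 1, against 5082 of all 9958. Summed levels of the biogenesis list were 214 and 284 FPKM in the female groups and 217 and 216 FPKM in the male groups.

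Markers of resident macrophages stood higher after TCPOBOP than in the 3 h vehicle pools, with 1 call, though their sum was below that of the 27 h female vehicle pools. All 14 Kupffer cell and macrophage markers had a ratio above 1, and their sum was 88.3 FPKM in vehicle and 113 FPKM after TCPOBOP, with a median response of 0.40. In the 27 h female vehicle pools the sum was 131 FPKM, and against those pools 9 of 14 responses were above 0. In males the sums were 89.3 and 93.4 FPKM, and 11 of 14 ratios were above 1. The male calls were 1 marker lowered and none raised, beside 0.505% and 1.33% of measured genes. In females at 27 h, 6 of 14 ratios were above 1 and none was called. In females only Emr1, which encodes the F4/80 antigen, was called (1.35 to 2.20 FPKM, adjusted p = 0.0385 in the authors' deposited table). Clec4f, a Kupffer cell lectin, stood at 23.02 and 31.9 FPKM and Csf1r, the macrophage growth factor receptor, at 5.12 and 7.26 FPKM, without a call; against the 27 h female vehicle their responses were -0.33 and -0.12. The part of these cells in the mitotic and ribosomal results was not tested. Endothelial markers summed to 136 and 130 FPKM and stellate cell markers to 60.9 and 55.4 FPKM in the female groups.

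Among the falls, genes of methyl group, steroid and fat metabolism recur. Of 22 genes of methionine and methyl groups 3 fell and 1 rose. Bhmt, which remakes methionine from betaine, fell from 251 to 108 FPKM, the largest loss of any called gene at 143 FPKM (2.23-fold, adjusted p = 3.34e-10 in the authors' deposited table). Bhmt2 went from 57.7 to 32.0 FPKM and Dmgdh, the next enzyme of betaine breakdown, from 28.3 to 17.8 FPKM. Set against the 27 h female vehicle pools, the response of Bhmt shrank from -1.14 to -0.29. That of Bhmt2 grew from -0.77 to -1.80. The rise in this list was Nnmt, which methylates nicotinamide (10.7 to 22.5 FPKM). Of 14 steroid dehydrogenases and reductases 4 fell and none rose: Hsd3b2 (19.9 to 6.96 FPKM), Hsd3b5 (2.80 to 1.01 FPKM), Cyp21a1 (9.40 to 4.19 FPKM) and Hsd17b6 (56.9 to 32.3 FPKM).

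Fat oxidation gave more falls than rises. Of 37 genes of fatty acid oxidation and ketogenesis 4 fell and 1 rose, with a median response of -0.28. Ppara, the nuclear receptor that switches this programme on in fasting, fell from 11.2 to 5.87 FPKM (1.84-fold, adjusted p = 0.000126 in the authors' deposited table). Cpt1a, which carries fatty acids into mitochondria, fell from 20.6 to 12.5 FPKM, Bdh1, an enzyme of ketone bodies, from 6.63 to 3.96 FPKM, and Fgf21, a fasting hormone, from 1.39 to 0.298 FPKM. Vnn1 rose from 2.50 to 3.82 FPKM. In triglyceride metabolism 3 of 33 genes rose and 4 fell. Thrsp, a lipogenic regulator, went from 18.98 to 87.4 FPKM and the lipase-like Pnpla3 from 2.14 to 7.99 FPKM. G0s2, an inhibitor of triglyceride lipase, fell from 11.1 to 2.71 FPKM and Elovl5, a fatty acid elongase, from 23.2 to 11.7 FPKM. Plin2, a lipid droplet coat protein, fell from 47.3 to 22.9 FPKM, but it stood at 18.7 FPKM in the 27 h female vehicle pools. In glucose metabolism, Ppp1r3c, which brings phosphatase to glycogen, fell from 19.2 to 6.10 FPKM (adjusted p = 3.17e-19 in the authors' deposited table), and Fbp1, an enzyme of glucose synthesis, from 87.8 to 53.4 FPKM. Ppp1r3b, a related glycogen targeting subunit, rose from 14.8 to 25.3 FPKM, as did Pygl, the glycogen phosphorylase of liver, from 22.99 to 41.3 FPKM.

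Bile acid genes gave falls and no rise, and cholesterol synthesis gave 1 call. Of 20 bile acid genes 3 fell, a share of 15% against 1.84% of all measured genes. These were Cyp8b1, which decides the make-up of bile acids (9.65 to 5.20 FPKM), Cyp7b1 of the alternative pathway (3.36 to 1.90 FPKM) and Fgfr4, the receptor of the gut hormone that restrains synthesis (17.3 to 10.9 FPKM). Cyp7a1, the rate-limiting enzyme, was at 3.98 and 6.01 FPKM without a call (adjusted p = 0.17 in the authors' deposited table). Of 27 cholesterol synthesis genes only Fdft1 was called, falling from 7.09 to 3.82 FPKM. The liver factor Cebpa fell from 16.7 to 8.83 FPKM (adjusted p = 0.00026 in the authors' deposited table). None of 47 respiratory chain genes was called in either direction, with a median response of 0.01.

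Genes that are higher in females held a larger share of rises than the rest. Sex bias was taken from the 27 h vehicle pools, which no 3 h value uses, as a level at least 2-fold higher in 1 sex, in the 9759 genes of 1 FPKM or more in those pools. Of 241 measured genes higher in females 41 rose (17.01%) and 9 fell (3.73%), and of 466 higher in males 19 rose (4.08%) and 16 fell (3.43%). Among the remaining 9052 the shares were 2.07% and 1.72%. The female 27 h vehicle pools stand apart from those of 3 h, as given below, and these classes rest on them. With classes from the 3 h vehicle pools, which the responses also use, 25 of 153 genes higher in females rose (16.3%) and 6 fell, and of 120 higher in males 14 rose (11.7%) and 13 fell (10.8%). In a separate list of known male-biased liver genes 7 of 22 fell and 3 rose. Nudt7, which breaks down coenzyme A in peroxisomes, fell from 85.4 to 31.2 FPKM, beside 186 FPKM in male vehicle. Cyp2u1, Hsd3b2, Hsd3b5, Cyp7b1 and the repressor Bcl6 (9.35 to 4.88 FPKM) were among them, and Mup3, a pheromone carrier, fell from 128 to 73.9 FPKM but was at 50.1 FPKM in the 27 h vehicle females. The known female-biased list held 8 raised genes of 28 and no lowered one. Of the 28, 3 were below 1 FPKM in vehicle and entered only through the treated mean. With no floor, 8 of 30 listed genes were raised and none lowered, against 1.26% and 0.839% of all genes. Of the 8, 4 are P450 or Sult2a genes given above, which appear in both lists. Socs2, a target and inhibitor of growth hormone signalling, rose from 23.7 to 43.2 FPKM (adjusted p = 0.00667 in the authors' deposited table).

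Many called genes were neighbours. With starts less than 300 kb apart, 59 of the 449 called genes (13.1%) stood in 16 runs of 3 or more, and 11 of the runs moved in 1 direction. Of raised genes 14.3% had a raised gene as their next measured neighbour, against 2.67% of measured genes raised. Of lowered genes 8.20% had a lowered one, against 1.84%. The genes of a run are named for their place in it, after their values were seen. The longest run of falls lies at mm9 chr10:127213461-127444564, a 231 kb stretch in which 6 of 7 measured genes fell: Rdh9 (4.18 to 1.76 FPKM), Rdh16 (4.95 to 2.52 FPKM), BC089597 (71.6 to 45.6 FPKM), Rdh7 (189 to 122.9 FPKM), Sdr9c7 (12.2 to 6.59 FPKM) and Hsd17b6. Several of these encode dehydrogenases of retinol and steroids. Bhmt, Bhmt2 and Dmgdh are neighbours at chr13:94386846-94522778, and the lipoprotein genes Apoc2, Apoc4 and Apoc1 fell together within 21.1 kb at chr7:20256928-20278008, with Apoc1 going from 199 to 119 FPKM.

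Runs of rises include gene families and unrelated neighbours. At chr7:14209316-14574937 Sult2a5, Sult2a2, Sult2a1 and Sult2a4 rose, and at chr12:105001797-105195107 Serpina1d, Serpina1a, Serpina1c and Serpina1e, the copies of the antitrypsin gene, of which Serpina1c went from 116 to 186 FPKM. A 518 kb stretch at chr2:177249447-177767215 held 5 raised genes of 6: Gm14420 (46.5 to 118 FPKM), Gm14403 (6.18 to 25.97 FPKM), Gm14325, Gm14326 and Etohi1. None of these 5 was called in males at 3 h, where Gm14420 stood at 84.4 and 85.0 FPKM. At chr16:93583706-93876318 Cbr1, a carbonyl reductase (10.6 to 20.4 FPKM), rose with its neighbours Setd4 (5.43 to 13.997 FPKM) and Morc3 (9.58 to 13.5 FPKM), which belong to other families. Near-identical copies within the Sult2a, Serpina1, Gm14 and Cyp runs can share reads, so the number of independent changes in these runs is uncertain. In the deposited annotation Rnase4 and Ang overlap over 6010 bases and both fell, Rnase4 from 244 to 136 FPKM, with 134 FPKM in the 27 h female vehicle pools.

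**Figure D4:**
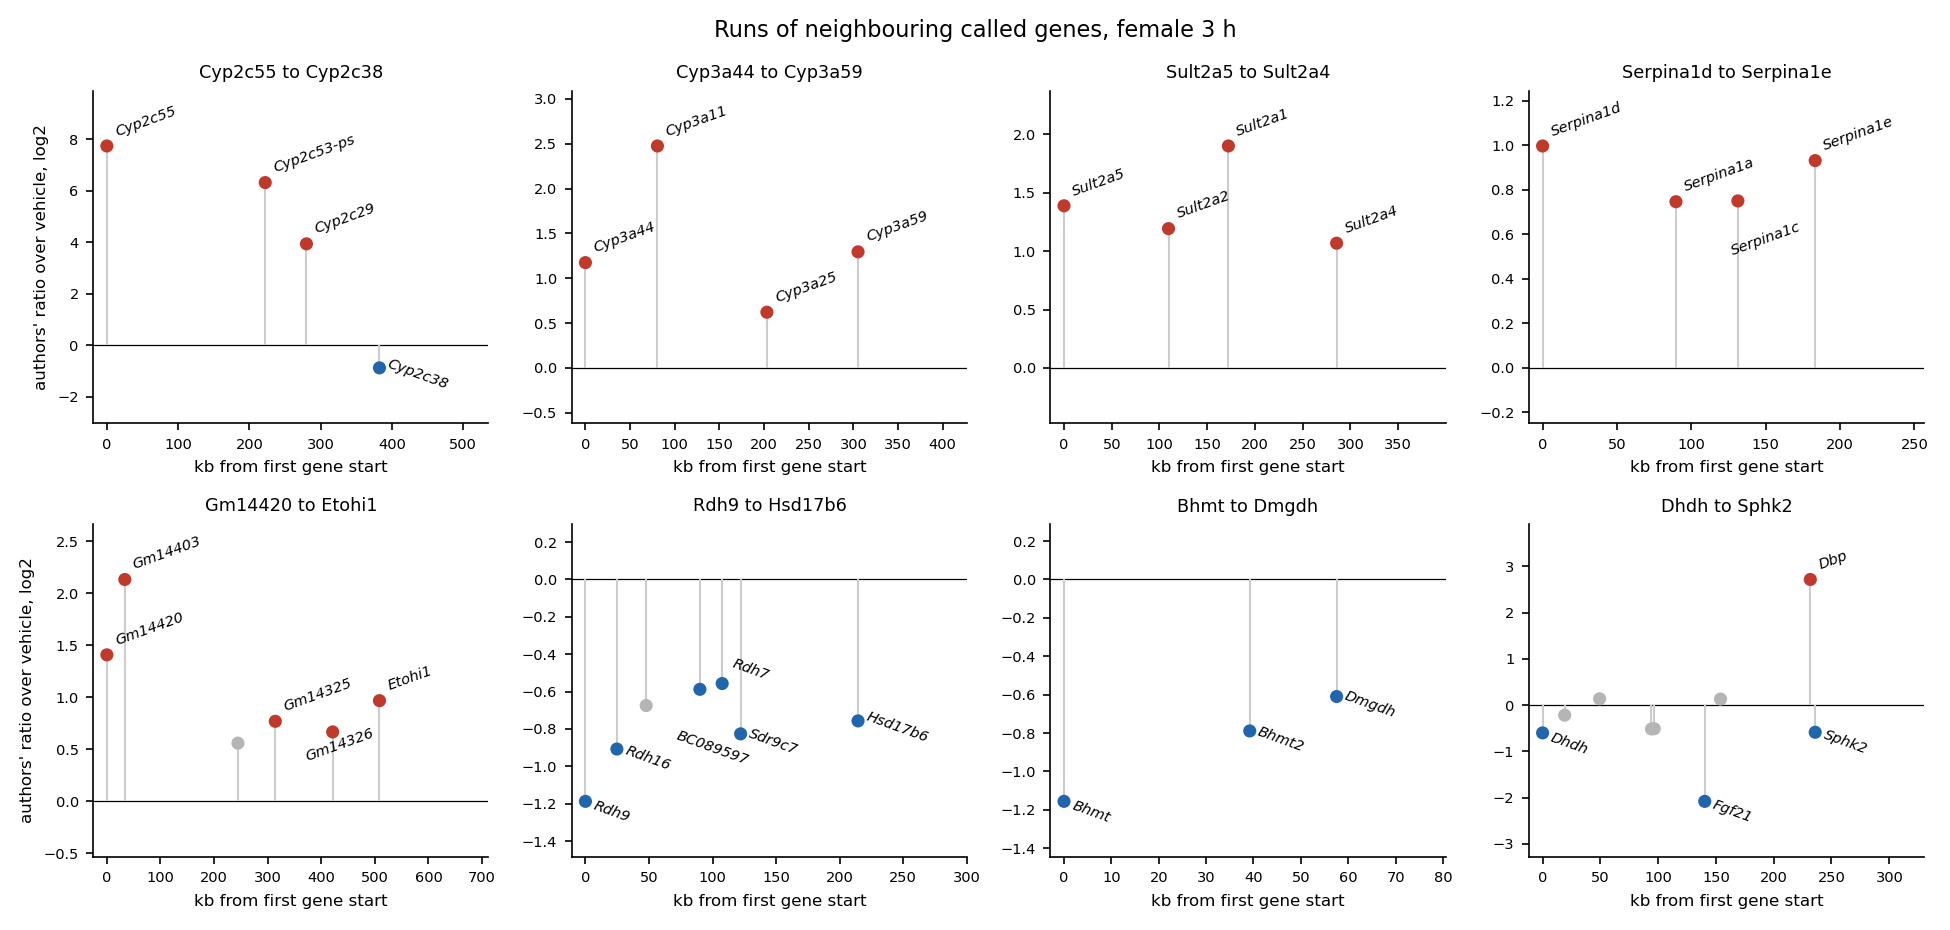
Each panel is 1 run of neighbouring called genes, with the distance in kb from the first gene start and log2 of the authors' ratio of TCPOBOP over vehicle in females at 3 h; red and blue points are called raised and lowered, grey points are measured genes without a call. The Rdh9 to Hsd17b6 and Bhmt to Dmgdh panels lie wholly below 0, and the Sult2a, Serpina1 and Gm14 panels wholly above it.

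Beside the males at 3 h, the female calls overlapped more in rises than in falls. Of the 10109 genes measured in males, 1.33% were raised and 0.505% lowered. Among 9714 genes measured in both, 93 were raised in both, which is 38.6% of the 241 female and 71.5% of the 130 male calls. Lowered in both were 7 genes, 3.87% of the 181 female and 14.3% of the 49 male calls. The median response of the female-raised genes was 0.92 in females and 0.52 in males, and of the female-lowered genes -0.74 and -0.15. Across genes, which are not independent replicates, Pearson's r was 0.48 and Spearman's rho 0.23. The sex difference itself could not be tested without values per pool, and a call in 1 sex alone does not show one. Strong rises of near-equal size were Por (17.3 to 94.3 FPKM in females, 11.1 to 63.6 FPKM in males) and Cyp2b10 (0.755 to 84.9 FPKM in males). Larger in females were the ratios of Ces2a (32.2-fold against 9.74-fold) and Tsku, a secreted hepatokine (11.2-fold against 3.53-fold), in the authors' deposited table. For both, the female vehicle mean was lower, at 5.75 against 16.8 FPKM and 3.44 against 12.2 FPKM. The female log2 response of Ces2a shrank to 3.11 against the 27 h female vehicle pools, so its size depended on the vehicle group. The complement gene C9 was lowered in females and not called in males: it went from 42.4 to 15.6 FPKM there and from 97.5 to 104 FPKM in males.

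Called in opposite directions were 2 genes. Nnmt rose 2.20-fold in females and fell 2.87-fold in males, from 2.72 to 0.950 FPKM (adjusted p = 0.0296 and 1.81e-05 in the authors' deposited table); in females at 27 h it was lowered. C730036E19Rik fell 2.11-fold in females and rose 3.50-fold in males, from 6.03 to 21.3 FPKM (adjusted p = 1.03e-07 and 2.08e-10 in the authors' deposited table). Its female vehicle mean was 6.53 FPKM at 3 h and 1.72 FPKM at 27 h.

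**Figure D5:**
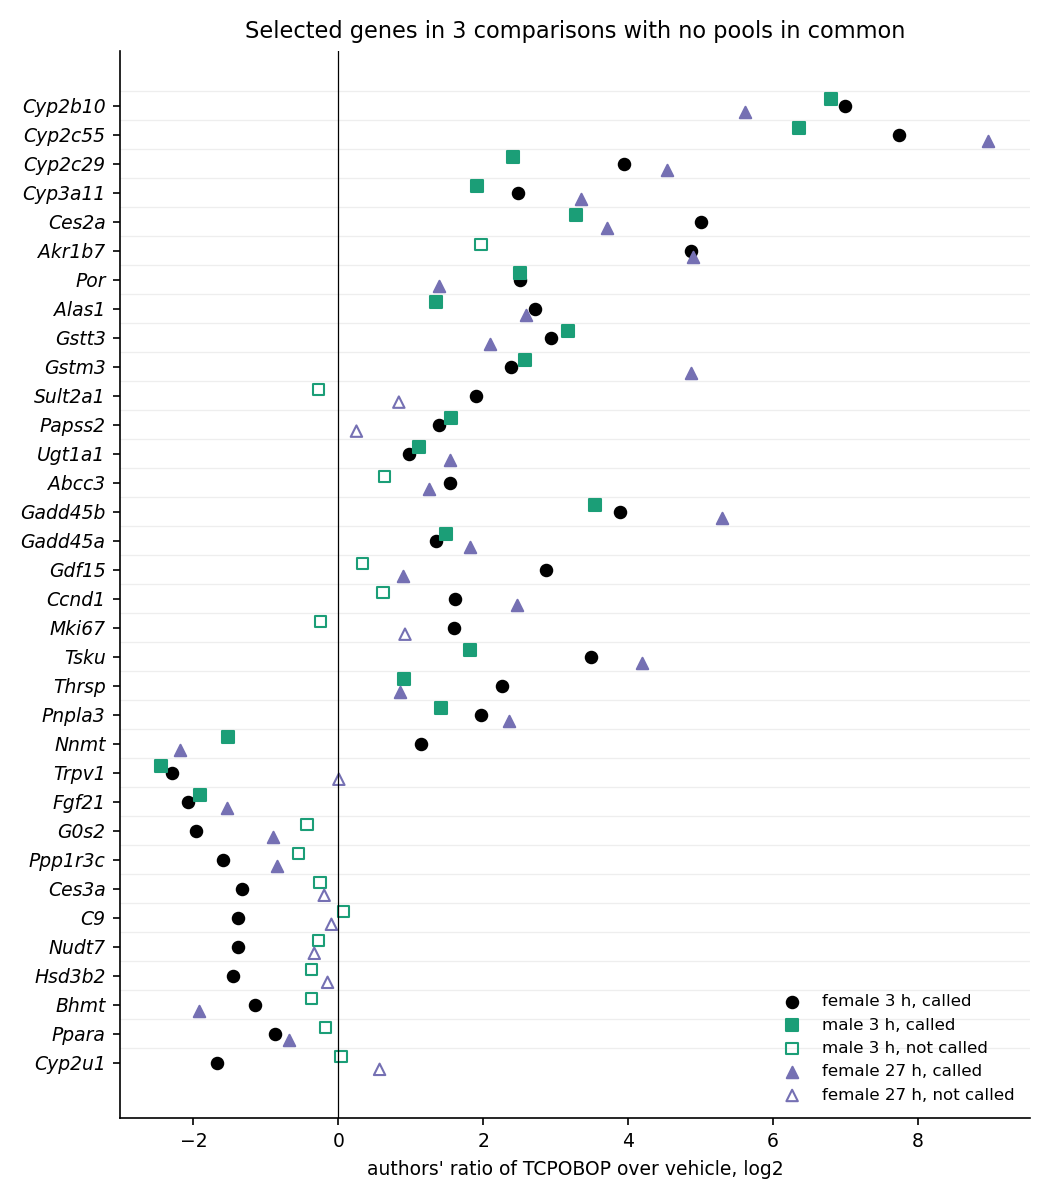
Log2 of the authors' ratio of TCPOBOP over vehicle for 34 of the genes named in the text, in females at 3 h (circles), males at 3 h (squares) and females at 27 h (triangles), which share no pools; filled symbols are called at the authors' adjusted p below 0.05. Enzyme genes at the top lie to the right in most comparisons, while several falls at the bottom are filled in females at 3 h alone.

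Against females at 27 h, whose raised and lowered genes were 6.98% and 6.01% of 10426 measured, 153 genes were raised at both times (59.3% of 258 at 3 h and 22.7% of 673 at 27 h) and 68 lowered at both (37.6% of 181 and 12.2% of 558). Called in the opposite direction at 27 h were 5 of the raised genes, namely Asap3, Cyp2a4, Dbp, Nnmt and Per3, and 7 of the lowered genes, among them Mup3 and BC021614 (44.2 to 8.71 FPKM at 3 h and 13.99 to 57.6 FPKM at 27 h). Cyp2c55 went on from 15.1 FPKM at 3 h to 132 FPKM at 27 h, and Cyp2c53-ps from 2.71 to 65.8 FPKM. Cyp2b10 was about as high at both times, at 119 and 124 FPKM. Gdf15 had 7.73 FPKM at 3 h and 5.96 FPKM at 27 h, where vehicle was at 3.34 FPKM. Trpv1, an ion channel, fell from 1.86 to 0.368 FPKM at 3 h but stood at 1.70 and 1.65 FPKM in the 27 h groups.

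The 2 female vehicle groups were not alike. Although livers were taken at the same hours of the day, 1445 of 10408 genes (13.9%) differed by 2-fold or more between the 27 h and the 3 h female vehicle means, against 284 of 10308 (2.76%) in males. The clock output gene Dbp was at 0.966 FPKM in the 3 h and 40.6 FPKM in the 27 h female vehicle pools, and at 3.94 and 3.19 FPKM in the male ones. Dbp rose to 6.09 FPKM after TCPOBOP (adjusted p = 0.0163 in the authors' deposited table) and Per3, a core clock gene, from 1.94 to 4.57 FPKM. Against the 27 h vehicle pools both responses have the other sign, at -2.52 and -1.52. Set against the 27 h vehicle pools, 229 of 266 raised genes (86.1%) and 167 of 183 lowered genes (91.3%) kept their direction, as did 68.7% of the genes without a call. Of those that kept it, 35 raised and 22 lowered genes had less than 50% of their log2 response left, Cbr1 among them (from 1.02 to 0.093). Acute phase transcripts were abundant in the 3 h females with and without TCPOBOP: Saa1, a serum amyloid gene, stood at 1480 FPKM in vehicle and 1452 FPKM after TCPOBOP, and Cxcl1, a chemokine gene, at 856 and 722 FPKM. The whole list summed to 15189 and 15437 FPKM in these groups but to 5872 FPKM in the 27 h female vehicle pools. In males at 3 h, 3 of 32 measured members were lowered and none raised, beside 0.505% and 1.33% of measured genes. Of 33 acute phase genes Lcn2 (144 to 298 FPKM) and Crp (113 to 195 FPKM) rose, and the male vehicle mean of Lcn2 was 50.8 FPKM. The part of these vehicle differences in the calls was not tested.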

How the data were processed

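Liver nuclear RNA of 22 libraries was sequenced as paired ends; the 12 pools of the female 3 h, male 3 h and female 27 h TCPOBOP comparisons are used here. Per the submitters' processing notes, reads were mapped to mm9 with TopHat2, counted with featureCounts 1.4.6-p5 or HTSeq 0.6.1p1, and tested with edgeR. The FPKM values were deposited by the authors as 1 mean per group. The ratio and signed fold of treated over vehicle were deposited by the authors, from edgeR on gene-body counts per the table's legend. The adjusted p-values were deposited by the authors; how they were adjusted is not given in the sources used here, and unadjusted p-values are not used here. No test of the report's own was run, because values per pool are not used here.

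From these values, genes whose higher group mean reached 1 FPKM were kept, the response was computed with 0.1 FPKM added and its median removed (Python 3.11.15, pandas 2.3.3, numpy 2.4.6), and calls were counted in 46 gene lists, of whose 1146 symbols 1130 matched. The members and lists were chosen with earlier results of these data known. The authors' ratio exceeds the FPKM quotient by a median of 0.06 on the log2 scale. Depth per pool came from low values of 3335 short genes, of which 90.3% in vehicle and 92.3% in treated pools were whole reads within 0.1%; both computations were tested on simulated data. Named genes are the 15 largest rises and falls, up to 4 called genes per list and direction, the 10 largest FPKM gains and losses, the receptors and genes called oppositely in males, from which the text draws; others were named after their values were seen; 1 of the largest falls is not reported here. Alternatives covered the floor, the adjusted p, the fold, the pseudocount, the centring and the vehicle group.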

Additional observations from a re-analysis of the deposited data

How the results depend on the processing

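The count of raised genes, 266, stayed within 1.5 times under no floor, other floors and an adjusted p below 0.01 (196 to 304), and that of lowered genes, 183, under no floor and other floors (157 to 203). At an adjusted p below 0.01 the lowered genes numbered 107. With a 2-fold change required as well as an adjusted p below 0.05, 120 rose and 37 fell, a rule that keeps fewer genes by construction. By a centred response of 2-fold without any p 164 rose and 47 fell, and these genes need not be among the calls. All 129 called genes of 1 FPKM or more that the text names kept their direction with a pseudocount of 1 or 0.01, without centring and by the authors' ratio. With the female 27 h vehicle in place of the 3 h vehicle, an alternative planned with earlier results known, 13 of the 129 changed sign. Their responses became -2.52 for Dbp, -1.52 for Per3, -0.60 for Papss2, -0.56 for Cyp3a25, -0.48 for Cyp3a59, -0.41 for Asap3, -0.15 for Cyp1a2, 0.026 for Cyp2c38, 0.23 for Rnase4, 0.37 for Ang, 0.49 for Plin2, 0.76 for Mup3 and 0.95 for C730036E19Rik; the cause was not tested. The same exchange moved the median of 40 of 46 lists by 0.1 or more: ribosome biogenesis from 0.39 to 0.75, fatty acid oxidation from -0.28 to -0.17, cholesterol synthesis from -0.18 to -1.27 and immediate early genes from 0.08 to 1.28. The 5 mitosis genes of 1 FPKM or more all entered through the treated mean; their median of 1.04 became 0.53 with the floor on the mean of both groups, and no result rests on it. No paired analysis was possible because the table holds group means and no values per pool, and for the same reason no pool could be left out. Depth limits the genes near 1 FPKM and below, where few reads stand behind a mean.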

Other observations

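Below the 1 FPKM floor, 38 further genes were called raised and 20 lowered; those named here were picked after their values were seen, and all values are from the authors' deposited table. Beyond the mitosis list, the cell division genes Ect2 (0.203 to 0.808 FPKM, adjusted p = 2.78e-09), Kif2c (0.133 to 0.415 FPKM, adjusted p = 0.00387) and Kif20b (0.108 to 0.318 FPKM, adjusted p = 0.00101) were raised in females, and none of the 3 was called in males at 3 h. Chaf1b, a histone chaperone of DNA replication, was raised in both sexes, from 0.165 to 0.622 FPKM in females (adjusted p = 0.000294) and from 0.174 to 0.697 FPKM in males (adjusted p = 3.4e-05). It starts at mm9 chr16:93884146, just beyond Morc3, the last gene of the Setd4, Cbr1 and Morc3 run. Sult1e1, the estrogen sulfotransferase, went from 0.1004 to 0.638 FPKM in females (adjusted p = 6.6e-05) and stood at 0.0273 and 0.0344 FPKM in males. Col4a3, a basement membrane collagen, went from 0.0274 to 0.245 FPKM (adjusted p = 2.1e-05). Lowered below the floor were Cyp26b1, an enzyme that clears retinoic acid (0.993 to 0.341 FPKM, adjusted p = 0.00664), and Il22ra1, a subunit of the interleukin 22 receptor (0.389 to 0.126 FPKM, adjusted p = 0.000622). Its relative Cyp26a1, above the floor, was raised from 8.44 to 21.03 FPKM (adjusted p = 0.000517).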
